A study of Mus musculus with 6 samples.

Results

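Toll-like receptors that signal from inside the cell, together with the protein that carries them there, were followed in bone marrow cultures grown with GM-CSF. The genes were listed by symbol, with earlier results of these data known: Tlr3, Tlr7, Tlr8, Tlr9, Tlr11, Tlr12, Tlr13 and Unc93b1, 8 in all. Of these, 7 had a probe set named by that gene symbol alone, 1 each, as did 19938 genes in all. Tlr11 was not analysed here.

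RNA of the cultured cells was hybridised to 6 Affymetrix Mouse Gene 1.0 arrays. The cells came from tibia and femur marrow of C57B/6 mice and were kept for 6 days with 20 ng/ml of recombinant GM-CSF, a cytokine that drives the growth of myeloid cells. Per the labels, 3 arrays hold the dendritic population of the culture and 3 the macrophage population. Both were unstimulated and carried no transgene or deletion named in the labels. The sources used here do not say by which markers the populations were separated, or whether replicates are separate mice or cultures. The p-values thus reflect the spread of these arrays alone, which may be technical. Levels are log2 RMA values as deposited. A difference is always dendritic minus macrophage, taken between the means of n = 3 arrays on each side, and the small number of arrays limits its precision.

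Endosomal Toll-like receptors recognise nucleic acids and a few microbial proteins after these have been taken up. In mice, Tlr3 senses double-stranded RNA, Tlr7 senses single-stranded RNA and its breakdown products, Tlr9 senses DNA with unmethylated CpG, and Tlr13 senses bacterial ribosomal RNA. Tlr11 and Tlr12 recognise profilin of Toxoplasma and have no working counterpart in humans (TLR11 is a pseudogene there). Unc93b1 is a membrane protein that escorts these receptors from the endoplasmic reticulum to endosomes, where proteases cut several of them into their active form. Dendritic cells and macrophages both use them to detect viruses, bacteria and parasites.

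The labels were first set against marker genes. Of 6 conventional dendritic cell markers 5 were higher in the dendritic population (Kmo was lower), and all 5 measured macrophage markers were lower. Of 10 neutrophil markers 2 (Mmp8 and Mpo) were lower in the dendritic population and 8 were not called. The Mpo call was lost in 7 of 16 alternatives, among them the fits without dendritic replicate 1 or 2 and without macrophage replicate 1 or 3. The mean log2 level of the neutrophil list was 7.29 in dendritic replicate 1 and 6.40 and 6.11 in dendritic replicates 2 and 3, against 8.01 in macrophage replicate 1 and 6.82 and 6.99 in macrophage replicates 2 and 3. Replicate 1 was thus the highest array of each population for this list. Between the populations these means are weighted by Mmp8, which had the largest difference of the list. It averaged 5.22 in the dendritic and 10.86 in the macrophage population. All 3 measured monocyte markers were lower in the dendritic population, and their mean level was also highest in macrophage replicate 1 (9.15, against 7.65 and 7.84 in macrophage replicates 2 and 3). In such bulk samples fewer cells of a type and less RNA per cell cannot be told apart.

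The intracellular receptors did not move together. Of the 7 measured genes, 4 were lower in the dendritic population (Tlr7, Tlr8, Unc93b1 and Tlr13), 2 were higher (Tlr12 and Tlr9) and Tlr3 was not called. A gene was called at a limma adjusted p under 0.05, with Benjamini-Hochberg adjustment over all 19938 genes. By this rule 21.6% of all genes were called, 11.6% lower and 9.98% higher. For each of the 7 genes the dendritic and macrophage arrays were free of overlap, as they were for 34.0% of all genes. The median difference was -1.01 over the 7 genes and 0.03 over all genes.

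**Figure D1:**
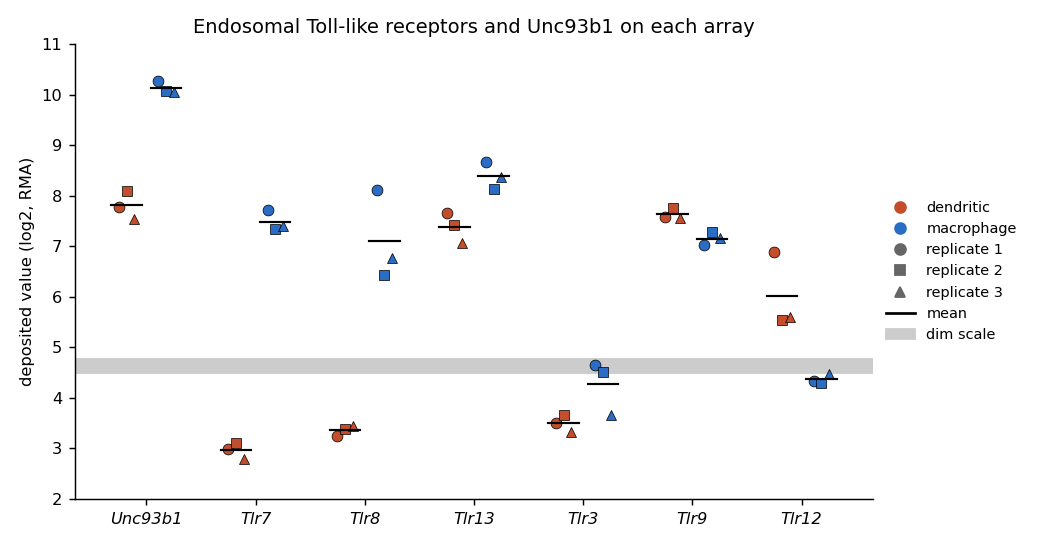
Deposited log2 RMA value (vertical axis) of each measured gene on each array, dendritic arrays left of macrophage arrays, with marker shape giving the replicate number and a line the mean of 3 arrays. The grey band spans the 95th percentile of olfactory and vomeronasal receptor probe sets on the 6 arrays (4.50 to 4.77). Tlr7 and Tlr8 lie under the band on every dendritic array and above it on every macrophage array, while Tlr12 lies above it on the dendritic arrays and below it on the macrophage arrays.

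The table holds no detection calls. As a scale for dim probe sets, 1210 probe sets of olfactory and vomeronasal receptor genes were read on the same arrays. Most of these genes were assumed to be little expressed in these cells, which was not tested. Their median lay between 2.92 and 3.05 and their 95th percentile between 4.50 and 4.77, and a value under that percentile on its own array is called dim here. Array medians over all probe sets were 4.79 to 4.96.

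Unc93b1 (probe set 10460237), the escort on which the receptors depend to leave the endoplasmic reticulum, was lower in the dendritic population. Its log2 level was 7.78, 8.10 and 7.54 on the dendritic arrays, against 10.27, 10.07 and 10.05 on the macrophage arrays. No array of either population was dim, and the nearest values of the populations were 1.96 apart. The difference was -2.33 ± 0.16 (SE), or 5.02-fold lower (limma adjusted p = 1.34e-05), with a 95% interval from -2.70 to -1.96.

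Tlr7 (probe set 10607870), a receptor of single-stranded RNA, had the largest difference of the 7 genes. Its log2 level was 2.997, 3.11 and 2.79 on the dendritic arrays, against 7.72, 7.33 and 7.40 on the macrophage arrays. All 3 dendritic arrays were dim, while all macrophage arrays stood well above the dim range. The difference was -4.52 ± 0.15 (SE), or 22.9-fold on the RMA scale (limma adjusted p = 3.24e-07), with a 95% interval from -4.86 to -4.17. Because RMA compresses differences of dim probe sets, the fold does not give a ratio of transcript numbers.

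Tlr8 (probe set 10607868), the close relative of Tlr7, was lower as well. Its log2 level was 3.24, 3.39 and 3.44 on the dendritic arrays, again all dim, against 8.10, 6.44 and 6.77 on the macrophage arrays. The macrophage arrays differed among themselves (SD 0.88) more than the dendritic ones (SD 0.11), with replicate 1 the high one, which was also the macrophage array with the highest neutrophil and monocyte marker levels. The part of those cells in the Tlr8 level was not tested. The difference was -3.75 ± 0.36 (SE), or a fold of 13.4 (limma adjusted p = 8.79e-05), and it was -3.25 without macrophage replicate 1 and -3.19 without replicate 1 of both populations. The 95% intervals of Tlr7 and Tlr8 overlap, at -4.86 to -4.17 and -4.57 to -2.93, and the genes were not tested against each other.

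Tlr7 and Tlr8 are neighbours on the X chromosome in the RefSeq annotation, with Prps2 on the Tlr7 side and Tmsb4x on the Tlr8 side. Neighbouring genes were looked up because position was not used in choosing the genes. Prps2, which makes a precursor of nucleotides, differed by -0.58 ± 0.17 (limma adjusted p = 0.0363), a call lost without replicate 2 or 3 of either population and in 3 other alternatives (limma adjusted p up to 0.134). Tmsb4x, which encodes the actin-binding peptide thymosin beta 4, differed by 0.18 ± 0.12 and was not called (limma adjusted p = 0.367). In all, 12 measured neighbours of the 7 genes were not receptors of the set, and 5 of these were lower, 2 higher and 5 not called. Of all genes, 11.6% were lower and 9.98% higher, and the neighbours were not tested as a set. Next to Unc93b1, Aldh3b1, an aldehyde dehydrogenase gene, was lower (-2.11 ± 0.16, limma adjusted p = 2.36e-05), and Aldh3b3 (-0.49 ± 0.22, limma adjusted p = 0.176) was called with the replicate block alone (limma adjusted p = 0.0463). Next to Tlr13, the glycolysis gene Pgk1 was lower (-0.67 ± 0.19, limma adjusted p = 0.0358), a call lost with all probe sets tested and without any single array other than dendritic replicate 1. Both neighbours of Tlr3 were not called.

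Tlr13 (probe set 10601385), the receptor of bacterial ribosomal RNA, was lower by a smaller amount. The dendritic arrays held log2 levels of 7.65, 7.42 and 7.06, against 8.67, 8.13 and 8.37 on the macrophage arrays. The gene was well above the dim range in both populations, and the nearest values were 0.47 apart. The difference was -1.01 ± 0.19 (SE), or 2.02-fold lower (limma adjusted p = 0.00473), with a 95% interval from -1.45 to -0.58.

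Tlr3 (probe set 10578493), the receptor of double-stranded RNA, which in mouse dendritic cells is known as a marker of the type 1 conventional subset (cDC1), was near the dim range in both populations. On the dendritic arrays the log2 level was 3.50, 3.65 and 3.32, all dim, against 4.66, 4.51 and 3.66 on the macrophage arrays, of which 2 were dim. The populations were separated by only 0.0035 at their nearest values, between dendritic replicate 2 and macrophage replicate 3. The difference of -0.78 ± 0.25 (SE) was not called (limma adjusted p = 0.0529), with a 95% interval from -1.34 to -0.22. With the replicate number as a block it was called (limma adjusted p = 0.0111). Leaving out macrophage replicate 3 gave a call as well (-1.09, limma adjusted p = 0.00239), and over the alternatives the adjusted p lay between 0.00239 and 0.177. Of the 7 cDC1 markers, Tlr3 included, 2 were higher (Batf3 and Irf8), 1 was lower (Clec9a) and 4 were not called. Xcr1, the receptor of the chemokine Xcl1, averaged 3.73 in the dendritic and 3.56 in the macrophage population, both dim. Clec9a, a receptor for dead cells, was lower in the dendritic population (4.26, dim on each dendritic array, against 6.84 in the macrophage population). Batf3, a transcription factor of the cDC1 subset, was higher by 2.68. Cadm1 (0.25 ± 0.18) and Itgae (0.07 ± 0.21) were not called. Cadm1 was called without dendritic replicate 1 (limma adjusted p = 0.0391), without replicate 1 of both populations (0.0413) and with array weights (0.0498).

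Tlr12 (probe set 10516518), a profilin receptor, was higher in the dendritic population. Levels (log2) of 6.89, 5.54 and 5.61 were measured on the dendritic arrays, against 4.34, 4.28 and 4.48 on the macrophage arrays, which were all dim. Dendritic replicate 1 stood apart from the other dendritic arrays, and it is also the dendritic array with the highest neutrophil marker level, whose part in the Tlr12 level was not tested. The difference was 1.65 ± 0.32 (SE), or 3.13-fold (limma adjusted p = 0.00519), and the 95% interval ran from 0.92 to 2.37. As the macrophage arrays were dim, this fold is no ratio of transcript numbers either. Without dendritic replicate 1 it was 1.21 (limma adjusted p = 0.000295), and without replicate 1 of both populations 1.19 (limma adjusted p = 0.000315). The genes on either side of Tlr12 in the RefSeq annotation were higher too, Zscan20 by 0.62 ± 0.16 (limma adjusted p = 0.0198) and the Polycomb gene Phc2 by 0.92 ± 0.14 (limma adjusted p = 0.00113). The Zscan20 call was lost without replicate 3 of either population (limma adjusted p = 0.0501 and 0.0693).

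Tlr9 (probe set 10588479), the receptor of CpG DNA, showed the smallest difference of all 7 genes. The dendritic arrays held log2 levels of 7.57, 7.76 and 7.56, against 7.01, 7.28 and 7.16 on the macrophage arrays. Both populations were far above the dim range. The difference was 0.48 ± 0.13 (SE), or 1.39-fold higher (limma adjusted p = 0.0293), with a 95% interval from 0.18 to 0.77. This call held without dendritic replicate 1 and was lost without any other single array (limma adjusted p from 0.0537 to 0.0999 in those 5 fits). It was lost also when all probe sets were tested (0.0542) and without replicate 1 of both populations (0.0550). The genes flanking Tlr9 moved the other way. Alas1, the first enzyme of heme synthesis, differed by -2.01 ± 0.13 (limma adjusted p = 8.87e-06) and the actin regulator Twf2 by -0.62 ± 0.12 (limma adjusted p = 0.00599).

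Plasmacytoid dendritic cells and B cells are known for high Tlr7 and Tlr9 in mice. Of 6 measured plasmacytoid markers, only Pacsin1 was called, higher by 1.58, and the mean level of the list was 5.56 to 5.85 on the dendritic arrays and 5.28 to 5.55 on the macrophage arrays. Siglech, a defining surface receptor of these cells, averaged 4.60 in the dendritic and 4.49 in the macrophage population. It was dim on dendritic replicates 2 and 3 and on macrophage replicates 1 and 2. Of 6 B cell markers only Cd79a was called (3.95 in the dendritic and 3.14 in the macrophage population, both dim), and this call was lost without replicate 2 of either population (limma adjusted p up to 0.0545). Mean levels of that list were 4.32 to 4.49 on dendritic and 4.03 to 4.26 on macrophage arrays. The part of such cells in the Tlr9 and Tlr12 levels was not tested.

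**Figure D2:**
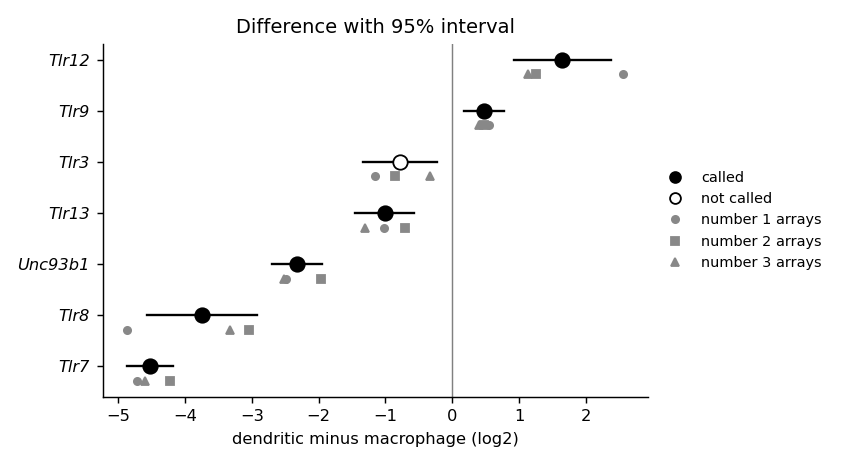
Difference between the populations (horizontal axis, dendritic minus macrophage, log2) for each gene, with the 95% interval of the limma fit as a line. Filled circles were called, the open circle (Tlr3) was not, and small grey marks give the difference between the arrays that carry the same replicate number. Tlr12 and Tlr9 lie to the right of 0, and Tlr7 (-4.52) and Tlr8 (-3.75) lie farthest to the left.

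Differences between same-numbered arrays show how even each difference was. For Tlr7 they were -4.72, -4.22 and -4.61, and for Unc93b1 they were -2.50, -1.97 and -2.52. For Tlr9 they were 0.55, 0.47 and 0.40, a narrow spread for a small difference. For Tlr12 they were 2.56, 1.26 and 1.13, and for Tlr3 they were -1.15, -0.86 and -0.33. For Tlr8 they were -4.86, -3.05 and -3.33, and for Tlr13 they were -1.02, -0.71 and -1.31. The pair numbered 1 was the widest for Tlr12, Tlr3, Tlr8, Tlr7 and Tlr9, and the pair numbered 3 for Unc93b1 and Tlr13.

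Promoters of receptors that were lower (Tlr8, Tlr13) and higher (Tlr12, Tlr9) in the dendritic population are given as 250 bases before and 50 after the annotated start, from RefSeq, build GRCm38.p6, because these receptors moved in opposite directions. They are read 5′ to 3′ on the strand of the gene. Capitals mark matches, on either strand, to the motifs GGAANNGAA (Ets-IRF composite), GAAANNGAA (IRF), GAGGAAG (PU.1), GGGANNTTC (NF-kB) and CACGTG (the E-box of MiT/TFE factors). The entries of Tlr7 and Unc93b1 were not in the table.
Tlr8, chrX:167264280-167264579, minus strand: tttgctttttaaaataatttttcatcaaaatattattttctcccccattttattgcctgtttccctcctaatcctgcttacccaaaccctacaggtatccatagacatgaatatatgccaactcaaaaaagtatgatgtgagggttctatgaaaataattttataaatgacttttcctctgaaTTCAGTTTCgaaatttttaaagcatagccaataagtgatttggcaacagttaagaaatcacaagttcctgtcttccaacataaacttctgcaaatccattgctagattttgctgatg
Tlr13, chrX:106143025-106143324, plus strand: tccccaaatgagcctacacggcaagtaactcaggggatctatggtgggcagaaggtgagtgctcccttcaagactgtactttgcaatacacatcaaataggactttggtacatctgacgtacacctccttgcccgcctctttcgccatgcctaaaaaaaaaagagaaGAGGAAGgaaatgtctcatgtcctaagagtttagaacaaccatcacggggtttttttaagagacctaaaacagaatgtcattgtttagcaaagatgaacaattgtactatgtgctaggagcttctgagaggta
Tlr12, chr4:128618570-128618869, minus strand: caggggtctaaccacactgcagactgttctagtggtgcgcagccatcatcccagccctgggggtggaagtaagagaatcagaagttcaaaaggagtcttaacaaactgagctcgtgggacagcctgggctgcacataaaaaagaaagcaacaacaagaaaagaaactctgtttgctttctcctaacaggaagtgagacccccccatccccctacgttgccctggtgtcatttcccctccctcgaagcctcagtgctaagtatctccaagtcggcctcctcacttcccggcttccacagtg
Tlr9, chr9:106222348-106222647, plus strand: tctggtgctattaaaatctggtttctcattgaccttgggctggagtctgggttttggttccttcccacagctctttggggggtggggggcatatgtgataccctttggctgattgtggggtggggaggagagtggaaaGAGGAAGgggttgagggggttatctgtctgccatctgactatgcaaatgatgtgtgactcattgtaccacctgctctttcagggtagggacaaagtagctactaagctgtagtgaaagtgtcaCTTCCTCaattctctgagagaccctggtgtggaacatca

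The Tlr8 promoter held 1 match, to the IRF motif on the opposite strand, from -67 to -59 counted from the annotated start as 0. Among all 32851 promoters, 8.56% hold that motif on either strand. The Tlr13 promoter held 1 PU.1 match, from -83 to -77. The Tlr9 promoter held PU.1 matches from -112 to -106 and, on the opposite strand, from 11 to 17, and 13.6% of all promoters hold this motif. The matches shown do not overlap each other. In the Tlr12 promoter none of the 5 letter strings was found, which says only that these letters are not in this window. The Ets-IRF composite (8.24% of all promoters), the NF-kB motif (3.94%) and the E-box (7.15%) were in none of the 4 promoters shown.

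Genes that chaperone, process, feed, relay or restrain these receptors were read from 8 lists that held 85 measured genes. Of these, 32 were lower and 20 higher in the dendritic population (61.2% called, against 21.6% of all genes), with a median difference of -0.19. These shares are not a like comparison. The lists were chosen with earlier results of these data known, and the 21.6% covers all genes, dim ones included. The lists differed in direction, and each is described by its counts and median, beside the median of all genes of 0.03.

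**Figure D3:**
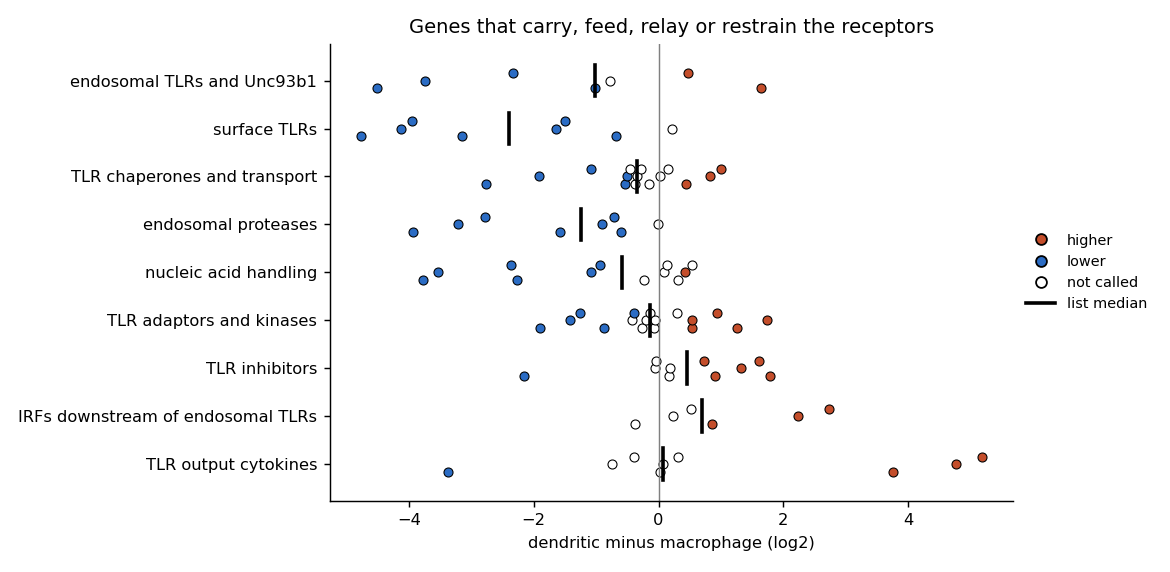
Difference between the populations (horizontal axis, dendritic minus macrophage, log2) for each measured gene of the 8 lists and for the 7 endosomal genes on top. Red circles were called higher, blue circles called lower, open circles not called, and black lines give list medians. The protease and surface receptor lists hold no red circle, and the list of interferon regulatory factors holds no blue one.

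Among chaperones and transport factors 5 of 15 were lower, 3 higher and 7 not called, with a median of -0.34 (3 lower without replicate 2 of either population, without macrophage replicate 3, or with all probe sets tested). The largest decreases were those of Rab7b (-2.77 ± 0.39), a late endosomal GTPase, of Sdcbp (-1.92 ± 0.17), which encodes syntenin-1, an adaptor that binds Unc93b1, and of Hsp90b1 (-1.09 ± 0.16). Hsp90b1 encodes gp96, the chaperone that folds most Toll-like receptors. Its log2 level was 9.95, 9.57 and 9.44 on the dendritic arrays, against 10.87, 10.71 and 10.64 on the macrophage arrays, without overlap (limma adjusted p = 0.00108). The higher members were Ap3b1 (1.01 ± 0.21), a subunit of the AP-3 coat needed for Tlr9 to reach the compartment from which it drives interferon, Hps4 (0.82 ± 0.15), which acts in lysosome-related organelles, and Bloc1s1 (0.45 ± 0.13). The call of Bloc1s1 was lost in 5 of 16 alternatives (limma adjusted p from 0.00376 to 0.152). The other listed AP-3 subunits did not follow Ap3b1. Ap3s1 was lower (-0.50 ± 0.14, limma adjusted p = 0.0274). This call was not kept without replicate 2 of either population, without macrophage replicate 3, or with all probe sets tested. Ap3m1 (-0.45 ± 0.16, limma adjusted p = 0.0835) and Ap3d1 (-0.15 ± 0.12, limma adjusted p = 0.543) were not called. These subunits were named after their values were seen. Other factors of the same route were not called, among them the co-chaperone Cnpy3 (0.15 ± 0.14, limma adjusted p = 0.570) and the endolysosomal transporter Slc15a4 (0.02 ± 0.15, limma adjusted p = 0.961), both named after their values were seen. Their 95% intervals ran from -0.16 to 0.46 and from -0.31 to 0.36.

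Of 8 endosomal proteases 7 were lower, none was higher and 1 was not called, with a median of -1.25. Some endosomal proteases cut Tlr7 and Tlr9 among many other proteins. Which of the listed ones do so was not examined here. Ctsl (cathepsin L) had a log2 level of 6.16, 6.55 and 6.04 on the dendritic arrays, against 10.39, 10.05 and 10.12 on the macrophage arrays (difference -3.93 ± 0.17, limma adjusted p = 7.71e-07). Ctsd (-3.21 ± 0.15) and Ctsk (-2.78 ± 0.20) followed. Ctsh was the member not called (-0.01 ± 0.19, limma adjusted p = 0.987).

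Of 12 measured genes that handle nucleic acids or their building blocks, 6 were lower, 1 higher and 5 not called, with a median of -0.58. Pld4, an endolysosomal exonuclease that degrades single-stranded nucleic acids, was lower by the most. It had a log2 level of 6.65, 6.89 and 5.88 on the dendritic arrays, against 10.48, 10.21 and 10.03 on the macrophage arrays (-3.77 ± 0.25, limma adjusted p = 9.08e-06). Acp5 (-3.53 ± 0.23), a lysosomal phosphatase, and Grn (-2.36 ± 0.12), whose product granulin binds CpG DNA, were lower as well. The related exonuclease Pld3 (-2.27 ± 0.12), named after its values were seen, also fell. The higher member was Samhd1 (0.43 ± 0.13), which degrades deoxynucleotides, and its call was lost without replicate 2 or 3 of either population and with all probe sets tested (limma adjusted p from 0.00725 to 0.160 over 16 alternatives). A block for the replicate number gave 2 higher members here, as did the fits without macrophage replicate 1 and without replicate 1 of both populations.

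The adaptors and kinases split evenly, with 5 of 17 lower, 5 higher and 7 not called (median -0.14). The higher ones numbered 3 without replicate 3 of either population or without macrophage replicate 2. Myd88, the adaptor of all these receptors except Tlr3, had a log2 level of 6.07, 6.13 and 6.57 on the dendritic arrays, against 7.59, 7.70 and 7.26 on the macrophage arrays (-1.26 ± 0.18, limma adjusted p = 0.000901). The kinase Ikbke (-1.90 ± 0.17) and the adaptor Ticam2 of Tlr4 (-1.42 ± 0.17) were lower too. Ticam1, the adaptor of Tlr3, differed by -0.14 ± 0.25 and was not called (limma adjusted p = 0.822; named after its values were seen). Traf6, the ubiquitin ligase downstream of Myd88, was higher, at 8.31, 8.28 and 8.27 on the dendritic arrays, against 6.55, 6.63 and 6.49 on the macrophage arrays (1.73 ± 0.12, limma adjusted p = 1.00e-05). The ubiquitin ligase Peli1 (1.25 ± 0.23) and the kinase Ikbkb (0.93 ± 0.13) were also higher.

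Of 10 measured inhibitors of the pathway 5 were higher, 1 lower and 4 not called, with a median of 0.46. Tnfaip3 (1.79 ± 0.18), which encodes the deubiquitinase A20, Nfkbia (1.61 ± 0.14), which encodes the NF-kB inhibitor I-kappa-B alpha, and the receptor Sigirr (1.32 ± 0.13) rose the most. Irak3, the inhibitory kinase IRAK-M, was the lower member (-2.16 ± 0.22, limma adjusted p = 0.000120). Tnfaip3 and Nfkbia are themselves known NF-kB target genes.

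Of the 6 interferon regulatory factors that endosomal receptors use or induce, 3 were higher, none was lower and 3 were not called, with a median of 0.69. Irf8 had a log2 level of 10.40, 10.20 and 10.89 on the dendritic arrays, against 8.25, 8.10 and 8.44 on the macrophage arrays (2.23 ± 0.19, limma adjusted p = 4.16e-05). Irf1 was higher by 2.73 ± 0.17 and Irf4 by 0.86 ± 0.24, the Irf4 call being lost in 4 of 16 alternatives (limma adjusted p from 0.00699 to 0.106). Irf5 (0.52 ± 0.17, limma adjusted p = 0.0644) and Irf7 (-0.38 ± 0.17, limma adjusted p = 0.175), which relay Tlr7 and Tlr9 signals to cytokine and interferon genes, were not called and are named after their values were seen. Irf5 was called under the replicate block (limma adjusted p = 0.0152), which made 4 members higher, and in 5 other alternatives, among them the fit without dendritic replicate 1 (limma adjusted p from 0.00903 to 0.210 over all 16).

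Among 9 cytokines and chemokines that these receptors induce when engaged, 3 were higher, Il1b was lower (-3.37 ± 0.31) and 5 were not called. The median was 0.07. Higher were Il12b (5.19 ± 0.21), Ccl5 (4.76 ± 0.47) and Il6 (3.75 ± 0.26). Il6 was dim on every macrophage array (2.72, 2.64 and 2.52), and Il12b on macrophage replicates 1 and 3 (4.35 and 4.68). The lower ones numbered 2 under the replicate block, without macrophage replicate 1 or 3, without replicate 1 of both populations and when genes under the median level were left out, and 3 with array weights. Ifnb1, the interferon beta gene, averaged 3.42 in the dendritic and 3.41 in the macrophage population, both dim (difference 0.02 ± 0.17, limma adjusted p = 0.968; named after its values were seen). The cells had received no ligand, and these genes also respond to other signals.

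Surface Toll-like receptors and their co-receptors, which bind microbial lipids and proteins, held 7 of 8 members lower, none higher and 1 not called, with a median of -2.40. Cd14 (-4.77 ± 0.20), Cd180 (-4.12 ± 0.24) and Tlr4 (-3.96 ± 0.25) had the largest differences. Ly96, the partner of Tlr4 in binding lipopolysaccharide, was the member not called, and it became the list's only higher member without macrophage replicate 1 or without replicate 1 of both populations.

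The genes whose pattern over the 6 arrays lay closest to those of Tlr7 and Tlr12 were found by the root-mean-square distance of gene-centred log2 values. Closest to Tlr7 were Dpep2 (distance 0.108), a membrane dipeptidase, the myosin Myo1f (0.118) and Cd84 (0.124), a receptor of the SLAM family. Dpep2 had a log2 level of 5.74, 5.68 and 5.17 on the dendritic arrays, against 10.29, 9.87 and 9.89 on the macrophage arrays. Closest to Tlr12 were Mtmr1 (0.159), a phosphoinositide phosphatase, the uncharacterised transcript A630072M18Rik (0.160) and Ido1 (0.172), which starts the breakdown of tryptophan. Ido1 had a log2 level of 5.90, 5.10 and 4.93 on the dendritic arrays, against 3.78, 3.61 and 3.91 on the macrophage arrays. Dendritic replicate 1 was thus the highest array for Ido1 as it was for Tlr12, and Mtmr1 held 8.58 there, against 7.24 and 7.12 on the other dendritic arrays. These neighbours were picked by likeness and carry no test.

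**Figure D4:**
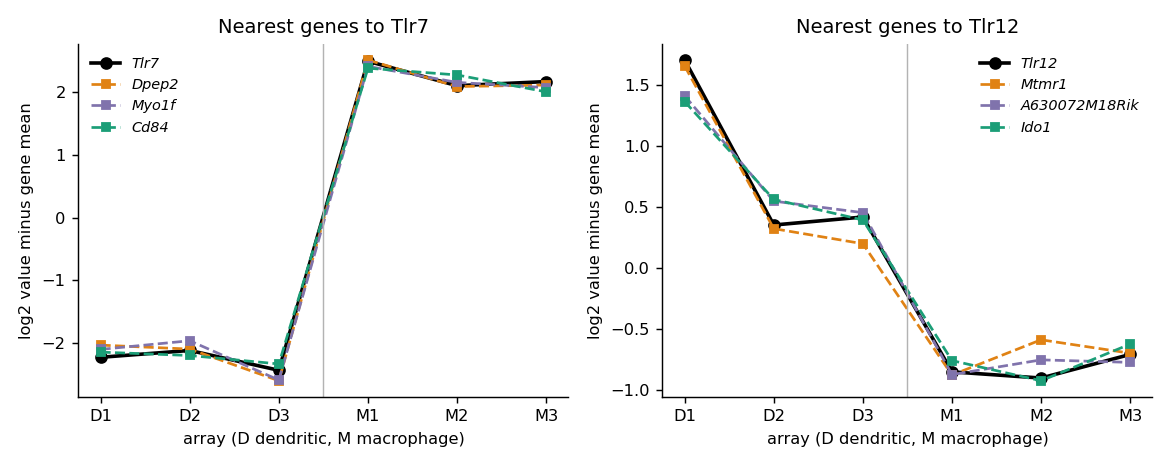
Log2 value minus the mean of the gene (vertical axis) on each array (D1 to D3 dendritic, M1 to M3 macrophage) for Tlr7 and its 3 nearest genes on the left, and for Tlr12 and its 3 nearest genes on the right. The genes near Tlr7 lie close together within each population, and those near Tlr12 share the high value on dendritic replicate 1.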

How the data were processed

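Per the submitters' processing notes, the authors made the deposited log2 values with RMA in R 3.0.2, which corrects background, normalizes arrays by quantiles and summarizes probes. The set of arrays normalized together, filters and the genome build are not stated there. The table holds 35556 probe sets on 6 arrays. From these values, names were taken from the gene table of the platform (21789 with 1 symbol, 1621 with several, 12146 unnamed). The probe set with the highest mean was used per gene, which left 19938 genes. Differences were tested with limma 3.58.1 in R 4.3.3 (lmFit, eBayes, 2-sided, no filter on level, Benjamini-Hochberg adjustment). Promoters were read from a RefSeq table of GRCm38.p6, in which 6 of the 8 genes matched. Python 3.11.15, pandas 2.3.3 and matplotlib 3.10.9 were used. Protein comparisons were planned and not made here.

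The members, gene lists and tests were chosen with earlier results of these data known. Named genes are all members, up to 3 called genes of each list in each direction with the largest difference, the 3 genes nearest in pattern to the most raised and most lowered member, markers, and neighbours and others named after their values were seen. Replicate numbers in the titles were taken to pair the arrays only in the replicate block and in the differences between same-numbered arrays. The main fit, behind every SE, interval and call given without an alternative, was unpaired. After the population means were taken out, arrays with the same number correlated at 0.385, 0.147 and 0.272 over genes. Unmatched pairs reached 0.155, and what a number marks is not stated in the labels.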

Additional observations from a re-analysis of the deposited data

How the results depend on the processing

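Of 16 alternatives, 1 (without replicate 1 of both populations) was chosen after seeing the data. Tlr7, Tlr8, Tlr12, Tlr13 and Unc93b1 kept direction and call in all 16. The Tlr9 difference was 0.41 to 0.54 when 1 array was left out, and its call was also lost at 0.48 with all probe sets tested and at 0.44 without replicate 1 of both populations. In these settings 1 endosomal gene was higher, as it was in 5 of the 6 fits that left out 1 array (range 1 to 2). Tlr3 gained a call with the replicate block (-0.78), with trend and robust eBayes (-0.78), with array weights (-0.91) and after centring on the 75th percentile (-0.73), and its difference was -1.09 to -0.59 when 1 array was left out. Filters at the 30th percentile or at the median level removed Tlr3, which then had no value. Centring on the 75th percentile moved the median gene by 0.054. The replicate block changed no other call of an endosomal gene. Of 68 other genes named (the AP-3 subunits Ap3d1, Ap3m1 and Ap3s1 left out), 54 were called. Of these, 8 lost the call in some alternative (Bloc1s1, Cd79a, Irf4, Mpo, Pgk1, Prps2, Samhd1 and Zscan20) and 0 changed direction. Of the 14 not called, 4 were called in some alternative (Irf5, Ly96, Cadm1 and Aldh3b3), and 6 changed sign. Without 1 array these ranged from -0.092 to 0.27 (Itgae), -0.068 to 0.13 (Slc15a4), -0.12 to 0.21 (Ctsh), -0.40 to 0.063 (Ticam1), -0.12 to 0.17 (Ifnb1) and -0.0088 to 0.53 (Ly96). Ctsh was also 0.075 after quantile normalization, 0.045 after centring, 0.15 with array weights and 0.24 without replicate 1 of both populations, and Ifnb1 was -0.022 after quantile normalization. Dim probe sets limit what Tlr3, the dendritic values of Tlr7 and Tlr8 and the macrophage values of Tlr12 can show. The same holds for other dim values, among them those of Rab7b on the dendritic arrays and of Il6 on the macrophage arrays.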
